A study of Mus musculus with 34 samples.

Results

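Macrophages of the colonic lamina propria that lack the IL-10 receptor alpha chain were compared with macrophages of littermates when both kinds of mice had received antibiotics in their drinking water. The 7 libraries of this comparison, 4 titled IL10R_abx (abx_160, abx_161, abx_495 and abx_497) and 3 titled littermate_abx (abx_490, abx_491 and abx_496), are 7 of the 34 of the series and stand in a table of 18. Their values are given in this order throughout. All 8816 named genes of that table were considered, and the 6612 whose mean exceeded 40.4 were tested. Both groups were C57BL/6 mice of 6 to 7 weeks, per the labels, and cells were sorted as CD45+ CD11b+ CD64+, CD11c-intermediate and negative for Ly6c and CD103. IL10R stands for the deficiency in the alpha chain that the series title names, and abx was read as antibiotics. Published mice of this kind delete Il10ra with a Cre recombinase made from the Cx3cr1 locus. Neither the alleles of the deficient mice or the littermates nor the meaning of 5C5 in the deficient titles is given in the labels. Untreated mice of the same strain and age, 5 libraries titled IL10R and 2 titled CX, serve below to compare effects, as do untreated IL10R and CXhet libraries (3 each) of a first table. Bone marrow chimeras sampled 4 weeks after transfer, titled ko_igg (3 libraries) and wt (4), make up the last such comparison. Their titles name a neutrophil depletion, and igg was read as a control IgG given to the deficient chimeras. The wt titles name no antibody, so IgG and deficiency cannot be told apart in the chimeras. Another 4 libraries of the table of 18 are titled IL10R_P19, with P19 read as a further loss of the IL-23 subunit p19. They enter the model's estimate of the spread, the principal components of the 18 libraries and a figure, and no comparison. The labels do not say that libraries of a group came from separate mice, so p-values measure the spread between libraries, which may be technical.

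IL-10 binds a receptor of alpha and beta chains, encoded by Il10ra and Il10rb. The kinases JAK1 and TYK2 attached to these chains phosphorylate STAT3, which raises genes such as Socs3, Bcl3, Sbno2 and Nfil3 that restrain inflammatory transcription. Colonic macrophages meet bacterial products all the time, and without the receptor alpha chain they become inflammatory in mice with a gut flora. Antibiotics lower the bacterial load, so the comparison addresses what loss of the receptor does when that load is reduced. Interferon-gamma acts through a separate receptor and raises the guanylate-binding proteins (GBPs), immunity-related GTPases and the machinery of MHC class I presentation.

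All 7 libraries carried the transcripts of the sorted cell type. Cd68, a lysosomal macrophage marker, stood at normalised read counts of 1208 to 1460, and C1qa, a complement subunit made by resident macrophages, at 10137 to 13168. Summed epithelial markers took 0.449% to 0.835% of the listed signal and neutrophil markers 0.0144% to 0.0314%, and among T cell markers Cd3e, Cd3g and Trbc2 were not listed. Of the 30 T cell and innate lymphoid markers 2 were listed, Thy1 and Ccl5. The reads of listed genes came to 747046 to 1646887 per library, least in abx_160, with 877518 in abx_161 and 877627 in abx_495. Libraries abx_160 and abx_161 differed from the other 5 on the first principal component of the 7, which held 48.3% of the variance: abx_160 lay at 17.4 and abx_161 at 45.0 while the others lay between -18.0 and -6.09. They did not form a pair throughout, since on the second component (16.6% of the variance) abx_160 lay at 20.8 near abx_495 at 17.4, and abx_161 at -11.2. Over genes the log2 values of abx_160 correlated at 0.926 with abx_495 and at 0.913 with abx_161. Between abx_160 and abx_161 on one side and abx_495 and abx_497 on the other, 773 of 6612 genes (11.7%) differed at an adjusted p under 0.05 in limma, a comparison added after the data were seen. Hspa8, a chaperone, was 1928 and 2654 in abx_160 and abx_161, 320 and 457 in abx_495 and abx_497, and 475 to 538 in the littermates. What the numbers stand for is not stated. Many results below are given with and without abx_160 and abx_161, and the others only with them.

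Only 2 of 6612 genes (0.0302%) differed between deficient and littermate macrophages under antibiotics at an adjusted p under 0.05 in limma, Il10ra and Gbp2b. Il10ra, the targeted gene, had normalised read counts of 8.71, 7.52, 1.70 and 2.88 in the deficient libraries, from 1 to 4 reads each. In the littermates it stood at 145, 191 and 138, from 131 to 141 reads each. The groups did not overlap, and every deficient library kept a trace of the transcript. The change was -4.86 on the log2(value + 0.997) scale (SE 0.57, 95% interval -6.04 to -3.68, adjusted p 0.000216 in limma), a scale that understates the change of a gene so near 0. Without abx_160 and abx_161 it was -5.60 (adjusted p 0.000139).

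The number of called genes depended on which deficient libraries entered. It stayed at 2 without abx_160, abx_161, both of these, abx_490 or abx_496, and was 4 without the littermate abx_491, 24 without abx_495 and 385 without abx_497. With abx_160 and abx_161 as the only deficient libraries 1314 genes were called, a setting chosen after the data were seen. edgeR's quasi-likelihood test on the recovered reads also called 2 genes, with 857 at an unadjusted p under 0.05. DESeq2 called 39 of the 3407 genes to which it gave an adjusted p, among them Ly6a (adjusted p 0.00425), Sbno2 (adjusted p 0.0109) and Stat3 (adjusted p 0.0298), and 50 of 2663 when started from all listed genes. Il10ra and Gbp2b were called in every limma setting above. In what follows, passing or failing refers to limma unless DESeq2 is named.

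Gbp2b, a guanylate-binding protein of the interferon-inducible GTPase family, was the only gene that limma and edgeR called higher. It read 305, 387, 186 and 209 in the deficient libraries, from 110 to 218 reads each. In the littermates it read 62.0, 70.4 and 55.8, from 52 to 60 reads each. Each deficient library lay above every littermate, with abx_160 and abx_161 the highest. The log2 change was 2.04 (SE 0.24, 95% interval 1.54 to 2.55, adjusted p 0.000216 in limma), from means of 272 ± 92.4 (SD, n = 4) and 62.7 ± 7.33 (SD, n = 3). The change was 1.65 without abx_160 and abx_161 (adjusted p 0.0072), and between 1.85 and 2.20 when any single library was left out. An exact two-sided permutation test over the 35 ways to divide the 7 libraries gave p = 0.0571 for Gbp2b and for Il10ra alike. This p doubles that of the smaller tail and is the smallest that a p so defined can reach here.

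**Figure D1:**
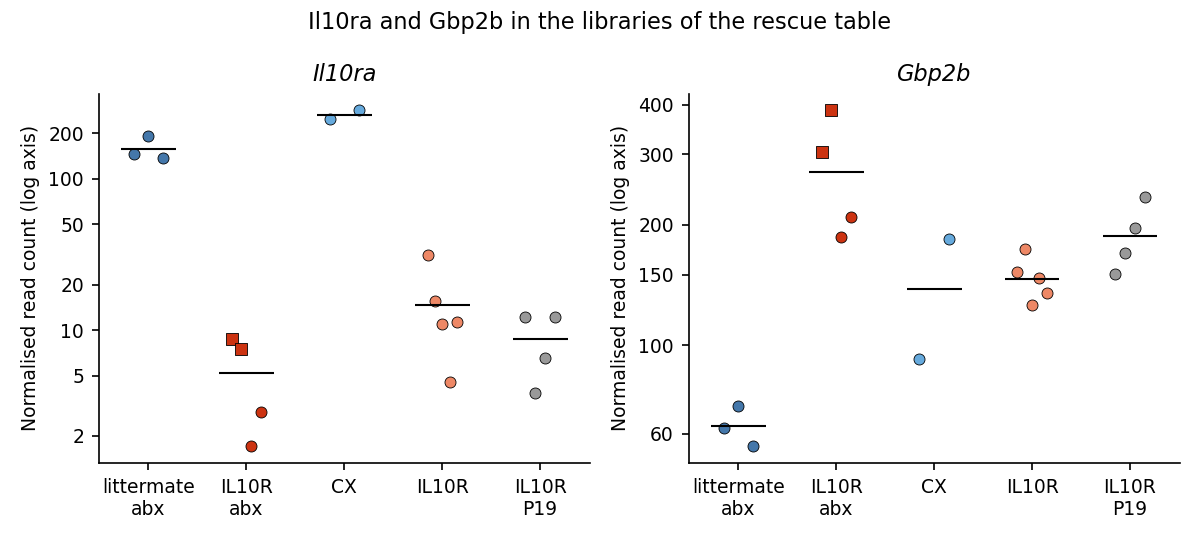
Normalised read counts (log axes that differ between the panels) of Il10ra and Gbp2b in each library of the 5 groups of the table, with the group mean as a line and abx_160 and abx_161 as squares. Il10ra is at most 8.71 in the antibiotic-treated deficient libraries and at least 138 in their littermates, while Gbp2b is at least 186 and at most 70.4.

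Gbp2b did not pass limma's test in the other comparisons of deficient with control macrophages when all their libraries entered. In untreated mice it averaged 147 ± 18.3 (SD, n = 5) in IL10R and 138 ± 64.9 (SD, n = 2) in CX libraries, a log2 change of 0.16 (adjusted p 0.748 in limma). The change was 0.52 in the first table (adjusted p 0.552 in limma) and -1.22 in the chimeras (adjusted p 0.199 in limma). The 3 antibiotic-treated littermates lay below both untreated means and the 4 deficient libraries above them. Il10ra, by contrast, was lower in all 4 comparisons, by -4.31 untreated (adjusted p 0.00122), -2.99 in the first table (adjusted p 0.138, which did not pass) and -1.99 in the chimeras (adjusted p 0.0125, all in limma). In the first table the library labelled IL10R 2 went against its label in Il10ra. This gene stood at 361 there, beside 9.26 and 65.9 in the other IL10R libraries and 371 to 689 in CXhet. Gbp2b read 82.9 in IL10R 2 beside 403 and 288, and 117 to 171 in CXhet. In other genes IL10R 2 went with its label. Nos2 read 1380 there, beside 337 and 765 in the other IL10R libraries and 4.17 to 8.55 in CXhet. Il23a read 54.4, beside 58.2 and 45.9, and 1.39 to 10.3 in CXhet. Without IL10R 2, a setting added after the data were seen, the change in the first table was -4.24 for Il10ra (adjusted p 0.0094 in limma). For Gbp2b it was 1.19 (adjusted p 0.0204 in limma), so that both genes passed. IL10R 2 was the highest of its group in Il10ra and the lowest in Gbp2b, so leaving it out had to enlarge both changes. Both results are a description only.

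Promoters of the GBP genes are shown because Gbp2b and its tested relatives all stood higher in the deficient libraries. The RefSeq promoter table (GRCm38.p6, a later build than the mm9 of the deposited files) held 5 of these genes, Gbp2b, Gbp2, Gbp3, Gbp5 and Gbp7, all on chromosome 3. A core of the interferon-stimulated response element, GAAA and GAAA with any 2 bases between them, read on both strands, occurred before a start of each of them (another listed start of Gbp3 lacks it), and in 3.44% of all 32851 promoters of the table. Its reverse complement is in capitals below, on the plus strand. The window of Gbp2b covers the 250 bases before its start, chr3:142594597-142594846, and the others are 40-base stretches around the match.
Gbp2b: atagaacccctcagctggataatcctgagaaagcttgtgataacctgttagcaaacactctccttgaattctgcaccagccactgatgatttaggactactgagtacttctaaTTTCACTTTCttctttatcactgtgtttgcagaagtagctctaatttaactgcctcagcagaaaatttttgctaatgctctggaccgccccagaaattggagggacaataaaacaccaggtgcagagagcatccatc
Gbp2, chr3:142620589-142620628: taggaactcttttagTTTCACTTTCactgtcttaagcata
Gbp3, chr3:142559984-142560023: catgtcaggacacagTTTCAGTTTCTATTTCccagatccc
Gbp5, chr3:142496754-142496793: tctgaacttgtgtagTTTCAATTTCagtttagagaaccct
Gbp7, chr3:142530268-142530307: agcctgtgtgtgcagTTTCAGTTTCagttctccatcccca
The match began 137 bases before the start of Gbp2b, 59 before Gbp2, 45 before Gbp3, 165 before Gbp5 and 53 before Gbp7, and that of Gbp3 holds 2 overlapping copies. A STAT site core, TTCNNNGAA on both strands, was found in 2 copies each in the promoters of Gbp5 and Gbp7, in none of the windows of Gbp2b, Gbp2 and Gbp3, and in 8.30% of all promoters. A match describes the letters only.

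All 7 tested GBP genes were higher in every deficient library than in every littermate, and only Gbp2b passed in limma. DESeq2 also called Gbp8 (adjusted p 0.0298) and Gbp4 (adjusted p 0.0482). Of all tested genes, 4.82% lay apart in that direction. Gbp8 read 285, 333, 205 and 250 in the deficient libraries and 108, 122 and 126 in the littermates, a log2 change of 1.15 (SE 0.28, adjusted p 0.164 in limma). Gbp4 read 168, 378, 122 and 141 against 73.3, 71.8 and 63.2, a change of 1.38 (SE 0.45, adjusted p 0.202 in limma). Library abx_161 was the highest for both. Gbp2 differed by 1.03, Gbp9 by 1.02, Gbp3 by 0.67 and Gbp7 by 0.55, none of which passed. The median of the 7 was 1.03. Without abx_160 and abx_161 the changes lay between 0.56 and 1.65, and since the groups did not overlap none could fall below 0. Gbp5 was below the level filter and Gbp6 was not listed. GBP genes are close relatives, and how the authors' counting treated reads that match several of them is not given in the sources used here.

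**Figure D2:**
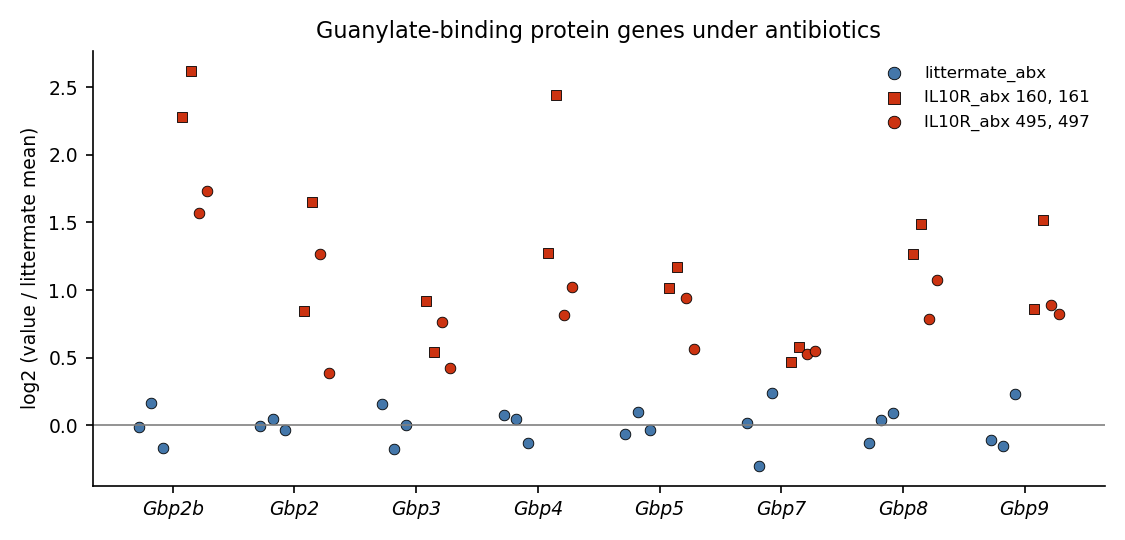
Each library's value of 8 GBP genes as log2 of its ratio to the littermate mean. Circles and squares of the deficient libraries all lie above the littermates of the same gene, furthest for Gbp2b, the one gene that limma called. Gbp5 was below the level filter and not tested.

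The wider list of interferon-gamma-inducible GTPases and regulators had mostly positive changes, with no call in limma besides Gbp2b. This list includes Gbp2b, so its counts and median are not separate from those of the GBP genes above. Of its 20 tested members 18 had a change above 0, and 12 lay apart above the littermates (4.82% of all genes did). The median was 0.73 beside 0.029 over all tested genes, of which 53.5% were above 0. Without abx_160 and abx_161 the median was 0.60 and 18 were above 0. Ifi47, an immunity-related GTPase, averaged 174 ± 81.2 (SD, n = 4) against 63.2 ± 16.0 (SD, n = 3), and its change of 1.38 had an adjusted p of 0.202 in limma. Without abx_160 and abx_161 the change was 0.99. Irf1, a transcription factor of the interferon response, overlapped between groups at 938 to 2044 and 952 to 1656. Cxcl9, a chemokine that draws T cells, read 720, 1431, 521 and 397 against 335, 344 and 235. Its change was 1.18 (95% interval -0.10 to 2.46), and 0.60 without abx_160 and abx_161. The littermate values lay below all 4, and the interval includes 0. Beside this list, the 2 listed T cell and innate lymphoid markers together took 0.038%, 0.0168%, 0.00661% and 0.0203% of the signal in the deficient libraries and 0.00807%, 0.00783% and 0.00335% in the littermates. One of them, the chemokine gene Ccl5, was tested and read 616, 267, 93.3 and 305 against 127, 118 and 49.5. Its change was 1.52 (95% interval -0.18 to 3.22), which did not pass, and 0.89 without abx_160 and abx_161. The part of these markers in the result was not tested.

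Of the genes of MHC class I presentation none passed in limma, while DESeq2 called H2-K1 (adjusted p 0.015), Tap1 (adjusted p 0.0483) and the near copies H2-Q7 and H2-Q9 (adjusted p 0.0482 each). All 17 tested members had a change above 0, with a median of 0.48, and 7 lay apart above the littermates (4.82% of all genes did). H2-K1, a classical class I heavy chain, read 6534, 6171, 3396 and 3994 in the deficient libraries and 2557, 2649 and 2314 in the littermates. Its change was 0.95 (SE 0.23, adjusted p 0.164 in limma) and 0.56 without abx_160 and abx_161, the 2 libraries with the highest values. Tap1, which moves peptides into the endoplasmic reticulum, read 588, 762, 365 and 383 against 232, 247 and 209. Its change was 1.13 (adjusted p 0.193 in limma), and 0.71 without abx_160 and abx_161. The groups of both genes did not overlap. The immunoproteasome subunits differed by 0.68 for Psmb8, 0.17 for Psmb9 and 0.71 for Psmb10. H2-Q7 had a change of 1.11, and the table gives H2-Q9 identical values, so that reads of these near copies cannot be separated. Without abx_160 and abx_161 the list's median was 0.44 and all 17 were above 0. Epithelial markers also leaned higher, with 25 of 29 above 0 and a median of 0.26, and their part in the result was not tested. Of the type I interferon-stimulated genes 12 of 15 tested were above 0 with a median of 0.42, which became 0.061 with 9 of 15 without abx_160 and abx_161.

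Genes downstream of the IL-10 receptor did not pass in limma, Il10ra aside, while DESeq2 called Sbno2 (adjusted p 0.0109) and Stat3 (adjusted p 0.0298) lower. Of 25 tested members of the IL-10 and STAT3 list 5 were above 0, the median was -0.23, 3 lay apart below the littermates, where 3.04% of all genes did, and 1 above. Besides Il10ra those below were Sbno2, a transcriptional co-regulator that STAT3 raises, and Stat3 itself. Sbno2 read 614, 577, 534 and 947 in the deficient libraries and 1084, 1333 and 1542 in the littermates, and no library overlapped. Its change was -1.0 (SE 0.21, 95% interval -1.45 to -0.56, adjusted p 0.125 in limma). Stat3 read 629, 655, 448 and 806 against 995, 1036 and 989, a change of -0.70 (SE 0.17, adjusted p 0.164 in limma). For both genes the change was much the same without abx_160 and abx_161, -0.88 and -0.74, and abx_160 and abx_161 did not stand apart from abx_495 and abx_497 (changes between them of -0.26 and 0.095). In untreated mice Sbno2 changed by -0.29 and Stat3 by -0.089, with adjusted p of 0.461 and 0.814 in limma.

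Tyk2, one of the receptor's kinases, was the member apart above, at 80.7 to 115 against 75.9 to 79.5. The following members overlapped between the groups. Il10rb, the beta chain, read 320 to 370 in the deficient libraries and 336 to 360 in littermates, a change of -0.012 that had a 95% interval from -0.37 to 0.34. Socs3, the feedback inhibitor of STAT3 signalling, read 2736, 2413, 1584 and 1698 against 1479, 1922 and 3058 (change -0.0023, 95% interval -0.57 to 0.56). The littermates alone spanned the deficient values. Il10 itself read 52.6 to 137 in the deficient and 59.6 to 78.5 in the littermate libraries, a change of 0.45 (adjusted p 0.478 in limma) that was 0.065 without abx_160 and abx_161. Without those libraries the list had 2 members above 0 and a median of -0.38.

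The other genes named for the smallest p-values in each direction, among those whose groups did not overlap, all failed the adjustment in limma. DESeq2 called 11 of the 15 of these 22 to which it gave an adjusted p. After Gbp2b the 11 highest in rank were Ikbke, Impa2, Fbp2, Lamb3, Net1, Mrpl44, Slc44a4, Ly6a, Krt20, Slc5a1 and H2-K1, with changes of 0.88 to 1.68 and adjusted p of 0.102 to 0.164 in limma. Ikbke, a kinase of interferon and NF-kB signalling, read 148, 90.3, 98.3 and 78.8 in the deficient libraries against 45.4, 37.9 and 51.6. Ly6a, an interferon-inducible surface protein, read 546, 641, 258 and 398 against 136, 156 and 116. Its change was 1.68 (SE 0.38), and 1.24 without abx_160 and abx_161. Neither gene overlapped between groups, which the rule for naming them required. Several of the rest belong to epithelium, such as Krt20, a keratin of surface colonocytes, and Slc5a1, the sodium and glucose transporter. Krt20 read 89.2, 97.8, 69.5 and 86.5 against 50.6, 42.0 and 22.1. Beside it, summed epithelial markers took 0.668%, 0.835%, 0.525% and 0.671% of the signal in the deficient libraries and 0.500%, 0.650% and 0.449% in the littermates, with 25 of 29 tested members above 0 and a median change of 0.26. The part of these markers in the result was not tested. Without abx_160 and abx_161 their median was 0.055.

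After Il10ra the 11 lowest were Sbno2, Eif1a, Mink1, Stat3, Atp6v0a1, Traf2, Supt6, Cln3, Ptpn23, Cx3cr1 and Athl1, with changes of -1.23 to -0.64 and adjusted p of 0.125 to 0.167 in limma. Traf2, an adaptor of TNF receptor signalling, read 87.1, 48.9, 66.1 and 109 in the deficient libraries and 160, 129 and 117 in the littermates. Cln3 and Atp6v0a1 encode a lysosomal membrane protein and a subunit of the proton pump, and differed by -0.67 and -0.68. All 22 genes were picked among those whose groups did not overlap, so leaving out abx_160 and abx_161 could not turn their sign. None passed without these libraries, with changes of 0.49 to 1.24 and -0.88 to -0.36. Yet all 22 passed when abx_497 was left out, and 9 when abx_495 was. Between these pairs of libraries, abx_160 with abx_161 and abx_495 with abx_497, 6 of the 11 higher and 2 of the 11 lower genes differed at an adjusted p under 0.05 in limma.

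**Figure D3:**
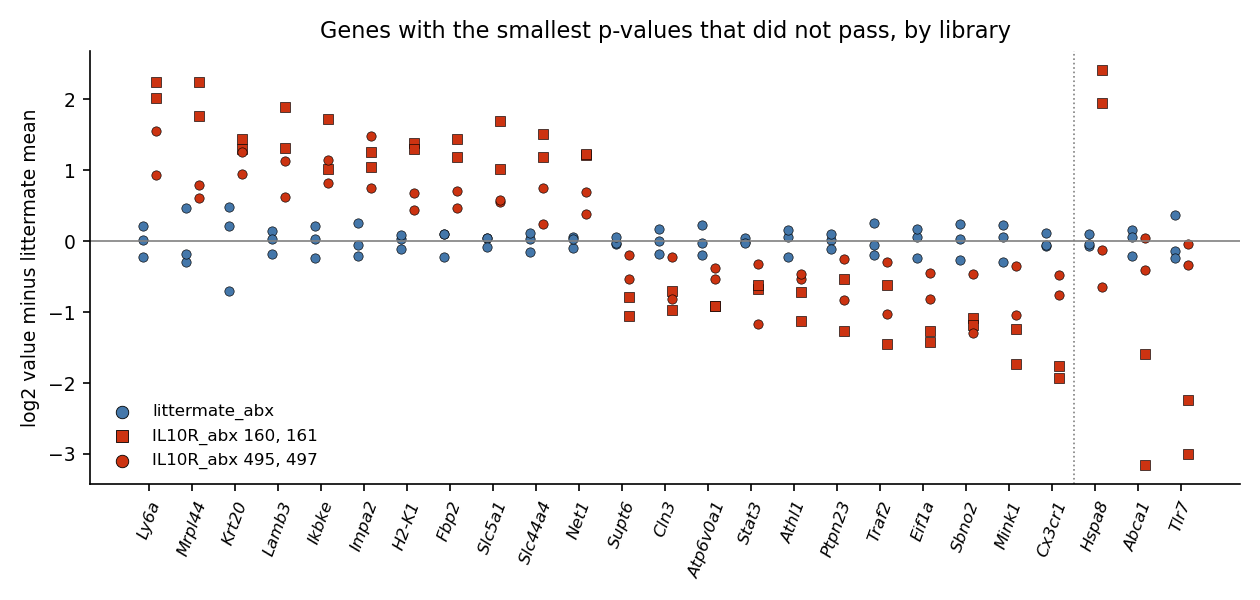
Left of the dotted line are 22 genes that did not pass, 11 per direction with the smallest p-values among genes whose groups did not overlap. Right of it are 3 genes that set libraries abx_160 and abx_161 apart. Each library is shown as its log2 value minus the mean of the littermates. The 22 genes were picked for deficient libraries that lie on 1 side of the littermates. For Hspa8 the squares at 1928 and 2654 lie above the littermates and the circles at 320 and 457 below.

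Markers of resident macrophages did not pass in limma or DESeq2. The 30 tested members had a median of -0.16, 9 were above 0, 3 lay apart below the littermates (3.04% of all genes did) and 1, Adgre1, above (4.82%). Cx3cr1, the fractalkine receptor, read 261, 293, 590 and 715 in the deficient libraries and 1082, 949 and 959 in the littermates. All 4 deficient libraries were lower and abx_160 and abx_161 lowest, and the change of -1.23 (SE 0.33, adjusted p 0.167 in limma) was -0.62 without them. Since a Cre allele at this locus would itself lower Cx3cr1 and the alleles are not stated, an allele difference and the deficiency cannot be told apart here. Csf1r, the receptor for the macrophage growth factor CSF1, read 2847, 2744, 4066 and 4549 against 4742, 4666 and 5179 (change -0.49, and -0.18 without abx_160 and abx_161). Fcrls, an Fc receptor-like gene, changed by -1.04 (95% interval -2.48 to 0.40). Adgre1, which encodes F4/80, read 1702 to 1846 against 1294 to 1648. The mannose receptor gene Mrc1 overlapped, at 781 to 1696 against 1415 to 2184. In untreated mice 20 of these 30 genes were called lower in IL10R than in CX libraries, where 6.03% of all genes were, and the median was -1.15. In these bulk samples fewer cells of a type and less RNA per cell cannot be told apart.

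Inflammatory cytokines and antibacterial genes gave no call in limma, and of the inflammasome genes listed with them DESeq2 called Pycard, an inflammasome adaptor, higher (adjusted p 0.0482). Il1b read 2000, 3314, 1229 and 1575 in the deficient libraries and 2787, 2448 and 1274 in the littermates. Its change was -0.12 (95% interval -0.83 to 0.59), and -0.56 without abx_160 and abx_161. Tnf read 372, 523, 248 and 269 against 446, 440 and 271. Its change was -0.16 (95% interval -1.09 to 0.78), and -0.54 without abx_160 and abx_161. Both cytokines overlapped fully between groups. Il12b, the p40 subunit shared by IL-12 and IL-23, was at most 10.9 in any of the 7 libraries and below the level filter, and Il23a and Il6 were not listed. Nos2, the inducible nitric oxide synthase, read 2.18, 9.40, 1.70 and 2.88 against 3.10, 2.71 and 2.11. In untreated IL10R libraries Nos2 averaged 181, against 0.285 in CX. Reg3g, an antibacterial lectin mostly made by epithelium, read 43.5, 3.76, 47.5 and 0 against 1.03, 2.71 and 3.16. Libraries abx_160 and abx_495 were the high ones, and the interval of the change of 1.67 ran from -1.17 to 4.52. Of 17 tested antimicrobial genes 11 were above 0 with a median of 0.064.

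The comparison was then set beside the deficiency without antibiotics. In the same fit 655 of 6612 genes (9.91%) differed between untreated IL10R and CX libraries, 256 higher (3.87%) and 399 lower (6.03%). That count rests on 2 CX libraries and fell to 20 without CX 1, 94 without CX 3 and 413 without IL10R 32. Of the 256 higher genes 229 (89.5%) also had a change above 0 under antibiotics, their median fell from 0.86 to 0.40, and 58 (22.7%) lay apart above the littermates, where 4.82% of all genes did. Of the 399 lower genes 297 (74.4%) had the same sign, with medians of -0.96 and -0.17, and 35 (8.77%) lay apart below, where 3.04% did. The genes were chosen by their untreated change, so the untreated medians and their distance from those under antibiotics are a description, and no library is shared between the comparisons. On the first principal component of the 18 libraries (65.8% of the variance) the 7 antibiotic libraries lay at 32.5 to 57.6. Those not titled abx, IL10R_P19 included, lay at -43.9 to -9.75. Whether the 18 libraries were processed together is not stated, so treatment and any separate processing cannot be told apart.

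A stricter set called with the same sign untreated, in the first table (588 of 6766 genes, 8.69%) and in the chimeras (606 of 6594, 9.19%) held 32 higher and 27 lower genes. Under antibiotics limma called no member, and DESeq2 called 4 of the 32, Ly6a, Tap1, H2-Q7 and H2-Q9. Without the library labelled IL10R 2 of the first table the set held 35 higher and 24 lower genes, 30 and 23 of them shared, with medians under antibiotics of 0.68 and -0.22. Among the 32 higher genes 28 kept the sign and the median was 0.68 beside 1.54 untreated. Above the littermates 13 lay apart, where 4.82% of all genes did. Those 13 were Ass1, Gbp2, H2-Q7, H2-Q9, H2-T22, H2-T9, Ifi47, Lap3, Ly6a, Pfkp, Psmb10, Tap1 and Wars, in which the H2-Q and H2-T pairs have identical values. Wars, the interferon-inducible tryptophan tRNA synthetase, averaged 166 ± 11.5 (SD, n = 4) against 97.2 ± 13.3 (SD, n = 3), a change of 0.77. Nos2, Clca4b and Lrg1, with untreated changes of 6.47, 7.49 and 5.41, passed the level filter through the untreated IL10R libraries and were near the floor under antibiotics, so that their changes there are not read. Means under antibiotics (deficient and littermate) were also low for Reg3g (23.7 and 2.3), Plet1 (5.52 and 3.5) and Tac1 (6.2 and 8.01). All of these genes still enter the counts and medians given for the 32. Of the 27 lower genes 20 kept the sign, with a median of -0.21 beside -1.72, and Fcrls and Mtss1 lay apart below, where 3.04% of all genes did. Mrc1 differed by -0.43 (-2.33 untreated), the platelet-factor chemokine gene Pf4 by -0.023 (-2.21) and Cd93, a receptor of phagocytes, by -0.064 (-1.77). Without abx_160 and abx_161 the medians under antibiotics were 0.45 and -0.15, and 25 and 19 genes kept the sign. The count of the first table was 200 without CXhet 2, 273 without CXhet 3 and 295 without IL10R 3. The count of the chimeras was 203 without ko_igg 14, 220 without ko_igg 16, 336 without wt 3, 342 without wt 4 and 1039 without wt 1.

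**Figure D4:**
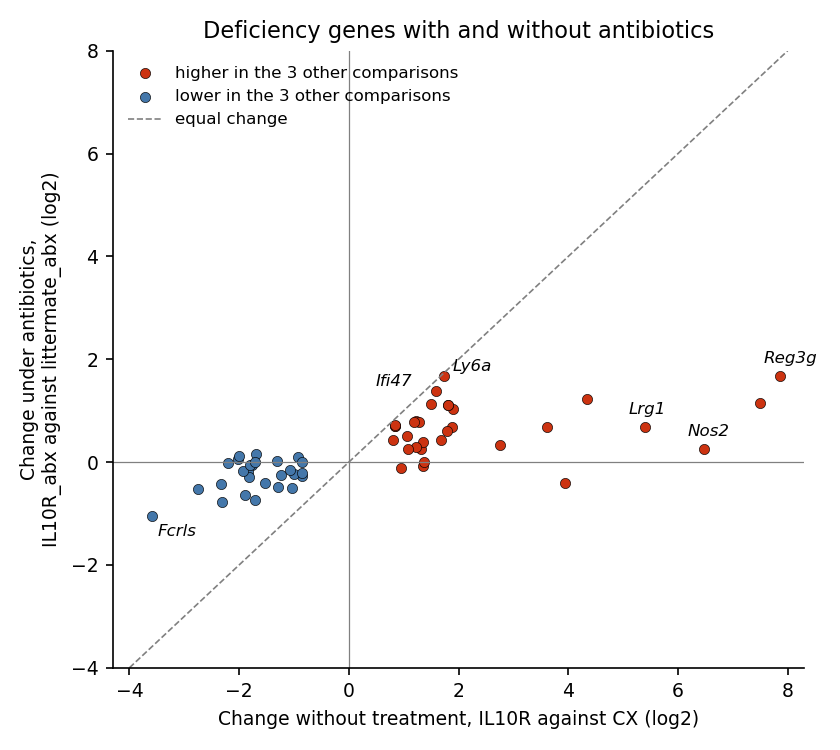
Log2 change under antibiotics (vertical) against log2 change without treatment (horizontal) for the 59 genes called alike in the 3 other comparisons of deficient with control macrophages. Of the 32 higher genes 28 lie between the dashed line of equal change and 0, as do 20 of the 27 lower ones, and the other 4 and 7 lie on the opposite side of 0. The higher genes include some near the floor under antibiotics, such as Nos2, Clca4b and Lrg1.

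The difference between the effects with and without antibiotics was tested as an interaction. It passed for 7 of 6612 genes (0.106%), all with a higher change under antibiotics: Fcgr3, Rab11fip5, Batf3, Amica1, Hfe, Fcgrt and Gbp2b, each at an adjusted p of 0.0426 in limma. Fcgr3, an activating IgG receptor, read 1800, 2445, 2014 and 2095 in the deficient libraries and 1801, 1647 and 2219 in the littermates, while untreated means were 576 in IL10R and 1257 in CX. Its change was 0.15 under antibiotics and -1.14 without. Fcgrt, the neonatal Fc receptor chain that recycles IgG, changed by -0.095 and -1.48, and Batf3, a transcription factor of dendritic cells, by 0.21 and -0.90. Amica1, an adhesion molecule, changed by 0.16 and -1.69. The first 6 genes were called lower in untreated IL10R and overlapped between groups under antibiotics. These calls depended on single libraries: without CX 1 only Gbp2b passed, and leaving out CX 3, any littermate, IL10R 27, 32, 61 or 67, or abx_160, abx_161 or abx_497 left 0 of 6612, whereas 73 passed without IL10R 68 and 15 without abx_495. Without abx_160 and abx_161 none of the 7 passed, and Hspa8 and Tspan32 did. Controls were titled littermate under antibiotics and CX without, so treatment and kind of control cannot be told apart in this test.

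Across all genes the data limited the size of most differences under antibiotics. The 95% interval of the change lay within 1 log2 unit of 0 for 5509 of 6612 genes (83.3%) and within 2 units for 98.8%. Unadjusted p-values under 0.05 were reached by 997 genes, 644 higher and 353 lower, and 520 genes (7.86%) had libraries that did not overlap. Respiratory chain genes, with a median of 0.32 and 20 of 24 above 0, had 7 members apart above the littermates (4.82% of all genes were). Without abx_160 and abx_161 21 members were above 0. DESeq2 called Sdhb and Cox5a of that list higher (adjusted p 0.0482 each). Immediate-early genes, which respond to stimulation and to tissue dissociation, had a median of -0.26 with 6 of 26 above 0 and 4 apart below (3.04% of all genes were). Chaperones went from a median of -0.056 to -0.38 without abx_160 and abx_161, with 10 and then 1 of 21 above 0. MHC class II and co-stimulation genes had a median of 0.13, dendritic cell markers 0.030 and chemokines 0.075. In untreated deficiency 6 of 10, 3 of 6 and 4 of 16 tested members of these 3 lists were called lower, where 6.03% of all genes were.

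**Figure D5:**
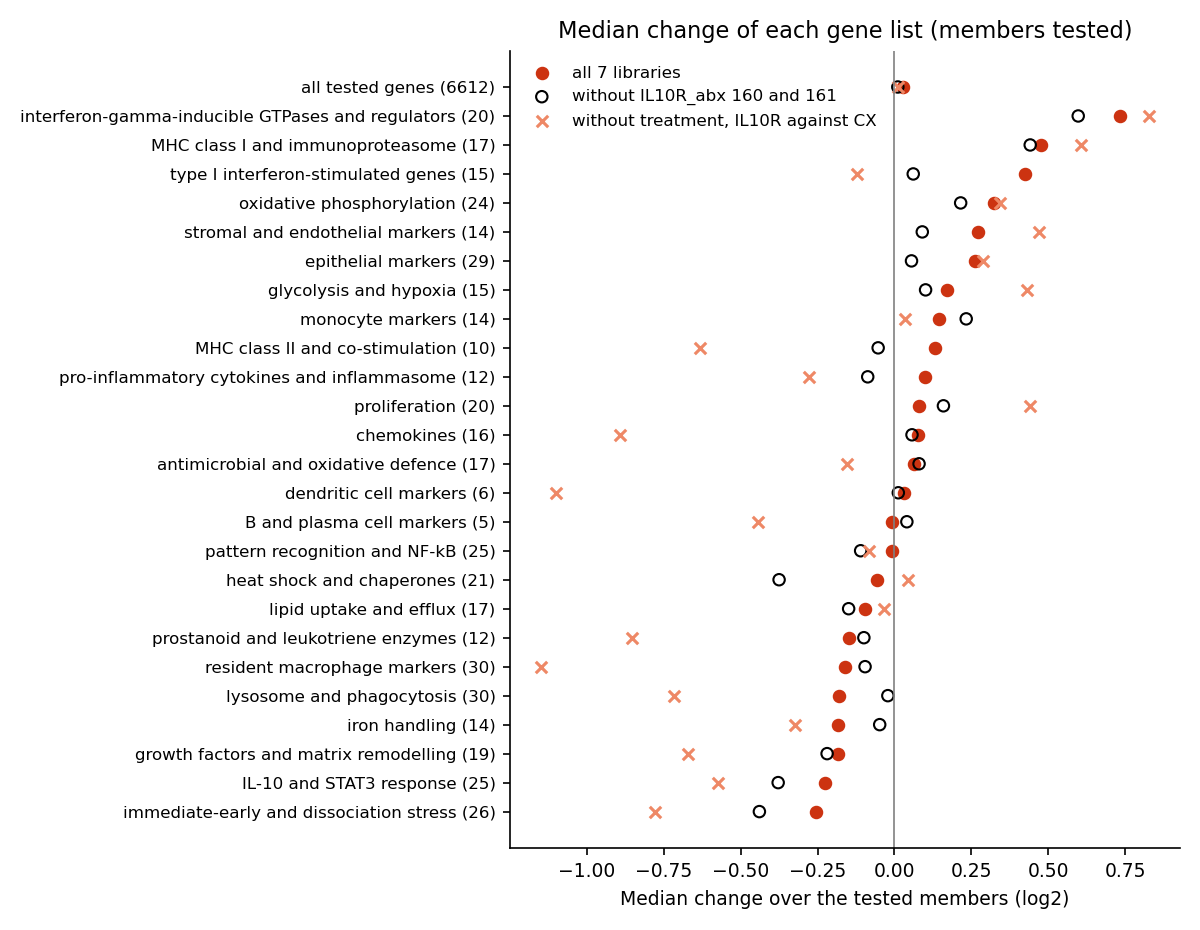
Median log2 change of each gene list with at least 5 tested members (number in brackets) under antibiotics, again without abx_160 and abx_161, and between untreated IL10R and CX. The interferon-gamma list is highest under antibiotics at 0.73, and resident macrophage markers lie at -0.16 there and at -1.15 untreated.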

How the data were processed

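Cells were sorted into lysis buffer, and oligo-dT beads captured their mRNA, which was amplified by in vitro transcription, per the labels' protocols. The submitters' processing notes name bcl2fastq, HISAT 0.1.6, HOMER and the build mm9, while strand use and the annotation are not given in the sources read. The deposited values are a signal, called normalised read counts here: the authors' tables hold whole reads scaled by a library's own factor, as read from the values, which are multiples of 1 read within 2.5e-05 of a read. A test on raw counts had been planned, and since the tables are normalised a log-scale test took its place. The 15605 rows without a gene name held no values, and each listed gene reached at least 37.0 in some library.

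The analysis used log2 of the value plus a pseudocount (0.997, or 1.31 in the first table and 0.982 in the chimeras) and left out genes with a mean in the lower quartile. One limma model per table held all its groups (limma 3.58.1 under R 4.3.3, variance trend, robust). A gene was called where its p, adjusted after Benjamini and Hochberg over all genes tested, was under 0.05. Alternatives were edgeR 4.0.16 and DESeq2 1.42.0 on recovered reads, other scalings, pseudocounts and filters, a fit of the 7 libraries alone, and leaving out libraries. Both count tools were run on the 6612 genes of the limma test, a gene set settled after their counts over all listed genes had been seen, and both sets are reported. The steps were tested on simulated data. Every pair of libraries of a group differed by more than sampling noise. Named by rule were Il10ra, the up to 12 genes per direction with the smallest p whose libraries did not overlap, and the interaction calls. Other genes came from gene lists or were named after their values were seen. The genes, lists and rules were chosen with earlier results of these data known. Some results on single genes are not reported here.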

Additional observations from a re-analysis of the deposited data

Results flagged for a closer look

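For 7 genes the effect of the deficiency differed between antibiotic-treated and untreated mice, by the test of that difference (limma, adjusted p 0.0426 each). Controls were titled littermate in the treated and CX in the untreated mice, which cannot be told apart from the treatment. The difference of the log2 changes was 1.28 for Fcgr3, 1.31 for Rab11fip5, 1.11 for Batf3, 1.86 for Amica1, 1.42 for Hfe, 1.39 for Fcgrt and 1.88 for Gbp2b. Of these Gbp2b alone was called under antibiotics, and the other 6 were called lower in untreated IL10R libraries. For Gbp2b the difference was between 1.39 and 2.37 when single libraries were left out. All 7 calls were lost without abx_160 and abx_161.

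In 3 of the genes described, 1 of the 4 deficient libraries lay far from the others, judged by its gap to the nearest as a share of the range. The share was 0.925 for Gbp9, where abx_161 was high at 134, 0.846 for Nos2, where abx_161 was high at 9.40, and 0.97 for C1qa, where abx_160 was high at 13168. Chance gives such a gap in about 1 of 20 groups. All genes named by rule and further genes of the text were checked, so a few such gaps are expected by chance alone.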

How the results depend on the processing

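Under antibiotics the directions of Il10ra and Gbp2b held in every setting that gave a value, and both stayed called except that DESeq2 gave Il10ra no adjusted p. Leaving out single libraries moved the number of called genes from 2 to between 2 and 385, the number for untreated deficiency from 655 to between 20 and 741, and that of the difference between effects from 7 to between 0 and 73. In the first table it ranged from 200 to 588 and in the chimeras from 203 to 1039. Leaving out abx_495 and abx_497 together gave 1314 under antibiotics, and leaving out abx_160 and abx_161 gave 2 for the difference between effects. DESeq2 called 39, 1101 and 99 genes in these 3 comparisons, edgeR 25 for the difference, and quantile normalisation 15 for the difference; the cause was not tested. Those runs used the 6612 genes of limma, settled after the counts over all listed genes were seen, which were 2, 990 and 19 in edgeR. DESeq2 then called 50 and 1241, and for the difference 1.79% of 5908 genes. Of the 22 named genes that did not pass, 22 passed without abx_497, 9 without abx_495 and 11 of the 15 with an adjusted p in DESeq2. The lysosome list's median was -0.022 and the neutrophil list's -0.45 without abx_160 and abx_161, and the latter -0.50 in edgeR. The antibiotic groups share no replicate number, so no paired fit of them was possible. In the first table a replicate block gave 808 calls in place of 588. Same-numbered libraries correlated at -0.058, 0.15 and 0.35 there, which does not pair them. Groups of 3 and 4 libraries and depths of 747046 to 1646887 reads leave small changes of low genes undetectable. The intervals given are those of limma and rest on the spread between libraries.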
